A study of Oryza sativa with 6 samples.

Results

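The genes described here are those of rice chromosome 11 that the arrays could read. A gene was a member when a probe set was paired with it and with no other gene, when the rice annotation placed it on chromosome 11, and when the geometric mean of that probe set over all 6 arrays reached a signal of 20. Within the chromosome the members were thus chosen by their signal level, not by the difference between crl1 and WT. The chromosome itself was picked with earlier results of these data known. Of 2834 genes annotated on the chromosome, 846 had such a pairing and 672 of these reached the minimum, out of 15038 genes that did so on the 12 chromosomes. Each gene was read from its brightest probe set. The 174 genes that did not reach the minimum were not tested. LOC4350249, at a signal of 20, LOC4349834, at 20.1, and LOC4350892, at 20.6, lay just inside the minimum, and LOC4351031, at 19.97, LOC4350852, at 19.4, and LOC9268890, at 19.3, just outside it. The tissue was the stem base of 7-day-old rice seedlings of the cultivar Taichung 65, either WT or crl1, grown on agar in a 12 h light and 12 h dark cycle at 26 °C. Both genotypes had the same background, medium and age. Each array held RNA of a pool of stem bases, with 3 pools of WT and 3 of crl1 numbered 1 to 3 in both. crl1 carries a mutation of CROWN ROOTLESS1, and the labels name no further allele and no complemented line.

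Crown roots are the shoot-borne roots of cereals, and their primordia form in the stem base. CROWN ROOTLESS1 is a transcription factor of the LBD family that acts downstream of auxin, and crl1 plants do not initiate crown roots. Chromosome 11 of rice is known for large clusters of disease resistance genes, and the end of its short arm shares a recently duplicated segment with chromosome 12, so that a probe of a gene there may also bind the transcript of its copy. Few of its array genes carry a gene name, 72 of the 672, and the others are given by their locus number and without a role.

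The highest signal of any chromosome 11 gene was 8342 and 8816 in WT replicates 1 and 2 and 3844 in WT replicate 3, and 7912, 8830 and 4147 in crl1 replicates 1 to 3, so that replicate 3 had the lowest maximum in both genotypes. The medians of the members were close, between 149 and 155 on all arrays. The stem base markers OSH1 and YAB1, genes of the shoot meristem and of leaf primordia, were read at 633 to 963 and 698 to 1230 in WT and at 774 to 1220 and 744 to 1320 in crl1, and OSH71, a further gene of the KNOX family, at 567 to 707 and 496 to 623. Of the root markers, PIN2 was at 27.3 to 42.4 in WT and 16.4 to 30.7 in crl1, NRAMP5 at 255 to 286 and 254 to 268, and OsCASP1 at 31.0 to 110 and 42.9 to 74.4. The seed storage gene GLUA-1 stayed at or under 6.61, while the seed marker RAG2 was at 19.2 to 27.8 in WT and 6.16 to 39.2 in crl1. None of the 9 markers of shoot, leaf, root and seed that reached the minimum passed the test between genotypes. The mutated gene CROWN ROOTLESS1 was not analysed here, since none of the probe sets was matched with it. In pooled tissue, fewer cells of a type and less RNA per cell cannot be told apart.

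In crl1 stem bases 5 genes of chromosome 11 were higher than in WT and 9 lower, by limma with the pair as a block (3 arrays of each genotype, adjusted p below 0.05, adjustment over every one of the 25045 probe sets tested). These 14 genes were 2.08% of the members, 0.744% higher and 1.34% lower. Over the genes of all 12 chromosomes 99 of 15038 were called, 0.658%, with 0.186% higher and 0.472% lower, and of all tested probe sets 0.651% were called. On the other 11 chromosomes together the share was 0.592%, of which 0.16% higher and 0.432% lower, and by chromosome it ran from 0.328% on chromosome 3 to 0.872% on chromosome 7. Chromosome 12, which holds the copy of the duplicated segment, had 3 called genes of 749, or 0.401%. The share of chromosome 11 depended on the arrays and settings used. Without replicate 3, 3 genes of the chromosome were called, 0.446% beside 0.505% over all chromosomes. Without replicate 2 there were 9, or 1.34% beside 0.851%. The share was 0% without the replicate block or without the variance trend of the fit. At an adjusted p under 0.01 in limma it was 0.149% beside 0.126%. The shares of the chromosomes were not compared by a test, and chromosome 11 was picked with earlier results of these data known.

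**Figure D1:**
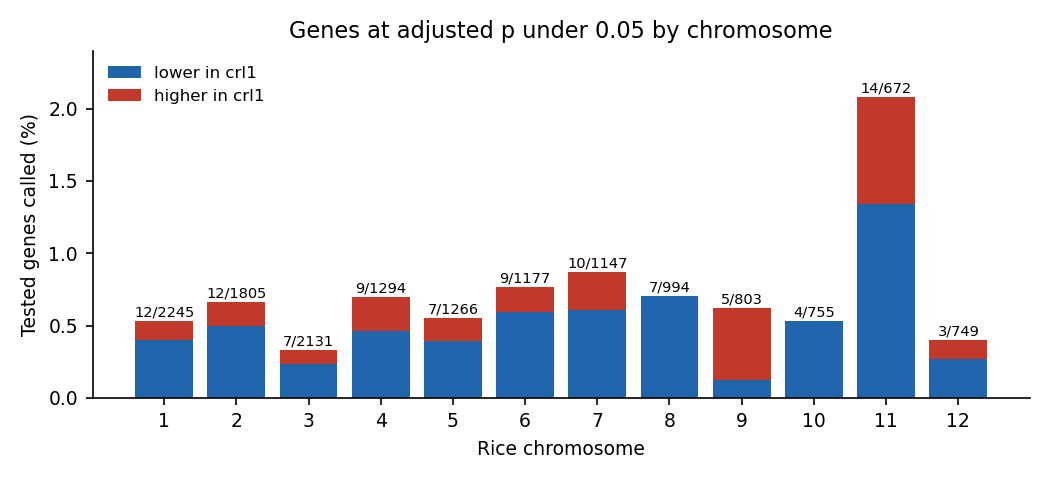
Percent of tested genes at a limma adjusted p under 0.05 on each rice chromosome (vertical axis, from 0), divided into genes lower and higher in crl1, with the called over the tested genes above each bar (n = 3 arrays per genotype). The bar of chromosome 11 stands at 2.08%, and those of the other chromosomes at 0.328 to 0.872%.

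In each band of signal the share was above that of the other chromosomes, on few called genes per band. Its dependence on signal was not tested. Among the members with a signal of 20 to 100, 4 of 248 were called (1.61%, beside 0.598% on the other chromosomes). Between 100 and 300 there were 7 of 230 (3.04% beside 0.603%), and over 300 there were 3 of 194 (1.55% beside 0.576%). At the same time the members were somewhat dimmer than the genes elsewhere, with a median signal of 148 against 163 to 215 on the other chromosomes, and fewer of the genes with a probe set reached the minimum, 79.4% against 82.4 to 86.8%. Signals also depend on the probes, so these levels describe the array and not the transcripts alone. Probe sets named _s_at or _x_at, which may bind more than 1 transcript, read 69 of the members. With such probe sets left out, 14 of 632 genes of the chromosome were called, the same 14, 2.22% beside 0.945% over all chromosomes.

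Most of the chromosome differed little between genotypes. The absolute log2 fold change was under 0.25 in 503 members, 0.25 to 0.5 in 118, 0.5 to 1 in 39 and over 1 in 12, with a median standard error of 0.14. The median log2 fold change was 0.00491, and -0.0154 to 0.00744 on the other chromosomes, a range that holds the value of chromosome 11. By replicate pair it was 0.00333, 0.0119 and -0.0287. The tail was wider: 1.79% of the members were past 1 on the log2 scale, against 0.773% on the other chromosomes together, with chromosomes 10 (1.85%) and 4 (1.62%) near it. At an unadjusted p under 0.05 there were 81 members, 12.1% beside a background of 9.56%, with 44 higher (6.55%, background 4.12%) and 37 lower (5.51%, background 5.44%). On the other chromosomes this share ran from 8.01% on chromosome 12 to 11.3% on chromosome 10.

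**Figure D2:**
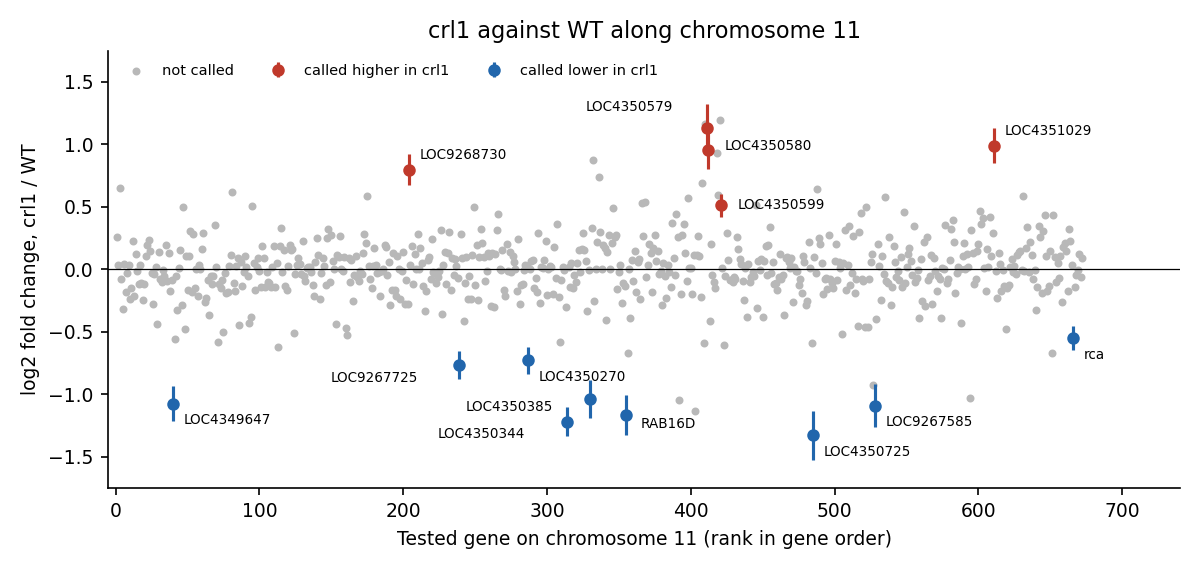
Log2 fold change of crl1 over WT for the 672 members (vertical axis) against their rank in gene order along chromosome 11 (horizontal axis), with standard errors for the called genes (n = 3 arrays per genotype). The 9 lower genes are spread from rank 40 to rank 666, and 3 of the 5 higher genes lie between ranks 411 and 421.

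The lower genes were spread along the chromosome, and most carry only a locus number. LOC4350344, the 314th tested gene from the start of the chromosome, stood at signals of 294.5, 184 and 409 in WT replicates 1 to 3 and at 126, 82.5 and 169 in crl1. Every WT array was above every crl1 array, and within each pair crl1 was under 0.5 of WT. Its mean fell from 296 ± 113 (SD, n = 3) to 126 ± 43.3, a log2 fold change of -1.22 (standard error, SE, 0.11, adjusted p = 0.00359 in limma). This was the only member called at an adjusted p under 0.01, and the call held without any one of the 3 pairs (adjusted p = 0.00131, 0.00695 and 0.0134). It ended without the block and without the variance trend, settings under which 0 members were called.

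The deepest fitted fall among the called genes was that of LOC4350725, which read 74.4, 233 and 178 in WT and 40.4, 64.0 and 74.9 in crl1. The groups overlapped, since WT replicate 1 lay below crl1 replicate 3, but crl1 was lower in each pair (162 ± 80.5 to 59.8 ± 17.6, log2 fold change -1.33, SE 0.20, adjusted p = 0.0246 in limma). LOC4349647, near the start of the chromosome, was at 218, 139 and 245 in WT against 86.1, 77.1 and 119 in crl1, with no overlap. It fell by 1.08 on the log2 scale (201 ± 55.2 to 94.2 ± 22.3, SE 0.14, adjusted p = 0.0148 in limma). A further probe set of the same gene, from the same target sequence by its name, gave a log2 fold change of -1.0 (adjusted p = 0.0188 in limma). LOC9267585 was at 207, 168 and 159 in WT and at 109, 98.2 and 53.4 in crl1. Again the groups were apart, with crl1 replicate 3 the lowest, and the mean went from 178 ± 25.8 to 86.7 ± 29.3 (log2 fold change -1.09, SE 0.17, adjusted p = 0.0297 in limma).

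Among the other lower genes without a name, LOC4350385 had a small spread in both genotypes. It was at 138, 153 and 123 in WT and at 74.8, 66.0 and 60.7 in crl1, 138 ± 14.7 against 67.2 ± 7.15 (log2 fold change -1.04, SE 0.15, adjusted p = 0.0204 in limma). LOC9267725 fell less, from 331, 319 and 457 to 215, 163 and 279 (log2 fold change -0.77, SE 0.11, adjusted p = 0.0217 in limma), and LOC4350270 from 405, 424 and 366 to 279, 223 and 222 (-0.73, SE 0.11, adjusted p = 0.0271 in limma). In these 3 genes the lowest WT array was above the highest crl1 array.

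**Figure D3:**
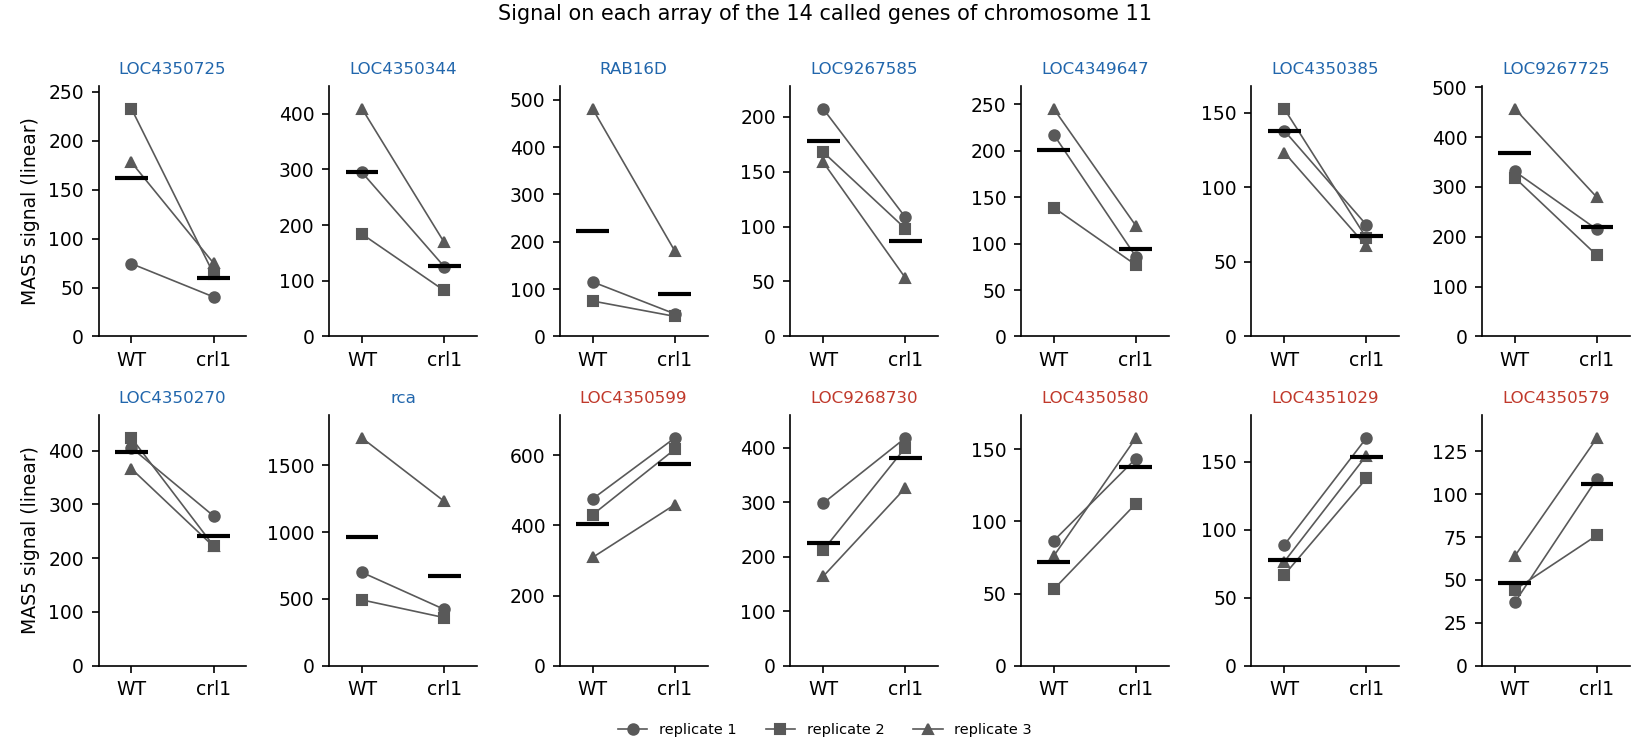
MAS5 signal (linear, each axis from 0) of the 14 called genes on the 3 WT and 3 crl1 arrays, with lines joining arrays of the same replicate number and bars at the group means. Blue titles mark genes lower and red titles genes higher in crl1, and the lines of each gene run the same way in all 3 pairs, while the groups are apart in 10 of the 14 genes.

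Both called genes with a gene name were lower in crl1, and in both replicate 3 was far above the other pairs. RAB16D, a dehydrin gene induced by abscisic acid and drying, was at 115, 74.8 and 481 in WT against 47.8, 42.4 and 181 in crl1. The groups overlapped because replicate 3 was high in both genotypes, at 5.06 times the mean of replicates 1 and 2 in WT and 4.01 times in crl1. Within each pair crl1 was lower (log2 fold change -1.17, SE 0.16, adjusted p = 0.0172 in limma), and without replicate 3 the gene no longer passed (-1.04, adjusted p = 0.178 in limma). The Rubisco activase gene rca, whose product keeps the carbon-fixing enzyme Rubisco active in the chloroplast, went from 698, 492 and 1704 to 421, 360 and 1231. Replicate 3 was again the highest of both groups, by 2.86 and 3.15 times, and the fall was smaller (log2 fold change -0.55, SE 0.10, adjusted p = 0.0429 in limma). The call of rca ended without replicate 1 (adjusted p = 0.0723), without replicate 3 (0.188), without the signal minimum (0.0703) and with its probe sets averaged (0.0552, all in limma). Of the 3 further probe sets of rca, 2 passed, at -0.61 (adjusted p = 0.0408) and -0.51 (adjusted p = 0.0426), and the third did not, at -0.34 (adjusted p = 0.282 in limma). Of the photosynthesis markers, RBCS, a gene of the small Rubisco subunit, was at 452 to 955 in WT and 422 to 688 in crl1, and CAB2R, a chlorophyll-binding protein gene, at 3930 to 8830 and 4070 to 9300 (adjusted p = 0.492 and 0.866 in limma). Their part in the fall of rca was not tested.

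RAB16D was the first of 4 dehydrin genes of the RAB16 group that stood next to each other in the order of tested genes, at ranks 355 to 358. Dehydrins are hydrophilic proteins that accumulate in drying seeds and in stressed tissue. RAB16C was at 86.8, 61.2 and 144 in WT against 90.9, 25.9 and 80.9 in crl1, lower in 2 of 3 pairs (log2 fold change -0.67, SE 0.24, adjusted p = 0.394 in limma, and 0.0387 without replicate 1). RAB21 was at 138, 103 and 326 in WT against 206, 85.9 and 116 in crl1 (log2 fold change -0.39, SE 0.30, adjusted p = 0.750 in limma). RAB16B was at 78.0, 98.9 and 285 in WT against 208, 55.5 and 192 in crl1 (0.01, SE 0.35, adjusted p = 0.997 in limma). In pair 1 these 3 genes were higher in crl1, and in pairs 2 and 3 they were lower, so that only RAB16D of the group moved one way in all pairs. The 4 genes are close relatives, and how far their probes bind each other's transcripts was not tested.

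**Figure D4:**
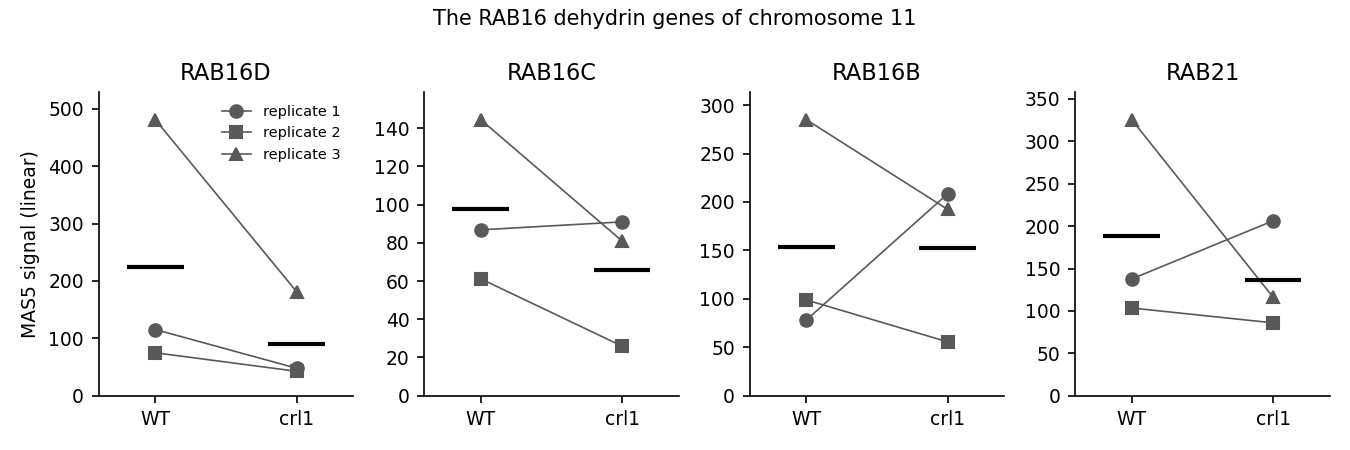
MAS5 signal (linear, each axis from 0) of RAB16D, RAB16C, RAB16B and RAB21 on the 3 WT and 3 crl1 arrays, with lines joining arrays of the same replicate number and bars at the group means. All 3 lines of RAB16D fall, from 115, 74.8 and 481 to 47.8, 42.4 and 181, whereas replicate 1 of the other genes rises.

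All 5 higher genes carry only a locus number. LOC4351029 was at 88.9, 66.9 and 76.6 in WT against 168, 138 and 155 in crl1. Its groups were far apart relative to their spread, 77.5 ± 11.05 against 153 ± 14.9 (log2 fold change 0.99, SE 0.14, adjusted p = 0.0180 in limma). LOC9268730 was at 298, 212 and 164 in WT and at 418, 399.8 and 326 in crl1, 225 ± 68.0 against 381 ± 48.7, without overlap (log2 fold change 0.80, SE 0.12, adjusted p = 0.0285 in limma). Neither gene was called without replicate 3, where 0 members were higher by limma, beside 35 higher at an unadjusted p under 0.05.

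The other 3 higher genes lay close together. LOC4350579 was at 37.0, 44.3 and 64.0 in WT against 109, 76.0 and 133 in crl1, without overlap (48.4 ± 13.98 to 106 ± 28.5, log2 fold change 1.13, SE 0.20, adjusted p = 0.0426 in limma). The next gene, LOC4350580, with no other protein-coding gene annotated between them, was at 86.7, 53.0 and 76.0 in WT against 144, 112 and 158 in crl1. It too was apart between genotypes (71.9 ± 17.2 to 138 ± 23.3, log2 fold change 0.96, SE 0.15, adjusted p = 0.0298 in limma). LOC4350599 was at 476, 430.4 and 309 in WT against 649, 617 and 459 in crl1. Its groups overlapped, crl1 replicate 3 being below WT replicate 1, and the rise was the smallest of the called genes (log2 fold change 0.51, SE 0.09, adjusted p = 0.0498 in limma). Its dimmer probe sets stood at 0.73 and 0.19 and did not pass (adjusted p = 0.398 and 0.807 in limma), and the call ended without any one of the 3 pairs (0.0558, 0.0789 and 0.307), without the signal minimum (0.0746) and with its probe sets averaged (0.298).

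These 3 genes fell within a stretch of 13 tested genes, from SWEET14 at rank 409 to LOC4350599 at rank 421. The stretch was picked after its values were seen and has no test. The annotation has 33 protein-coding genes in it, of which 15 had a probe set and 2 did not reach the minimum. Of the 13, 8 had a positive and 5 a negative log2 fold change, 6 were higher at an unadjusted p under 0.05 and 1 lower, and the median was 0.51. The higher genes were not all next to each other. LOC4350578, just before LOC4350579, was at 14.5, 7.49 and 27.5 in WT against 53.5, 27.5 and 22.7 in crl1, a log2 fold change of 1.16 with a wide error (0.45, adjusted p = 0.435 in limma) and a fall in pair 3. LOC9267533, at 30.4, 23.6 and 27.7 in WT against 57.8, 46.0 and 51.7 in crl1, was without overlap (log2 fold change 0.93, adjusted p = 0.143 in limma), and LOC4350598 was higher in all pairs, from 12.1, 11.4 and 30.5 to 31.0, 21.5 and 76.2 (1.19, adjusted p = 0.143 in limma). LOC9270101, between these, was at 26.7, 12.2 and 21.0 in WT against 31.1, 27.1 and 28.1 in crl1, also without overlap (0.60, adjusted p = 0.603 in limma). LOC4350578, LOC4350598 and LOC9270101 each had a WT array under the signal minimum, so their fold changes rest partly on dim signals. With a pseudocount of 16 the log2 fold change was 0.64 for LOC4350578 and 0.73 for LOC4350598. Between LOC4350580 and LOC9267533, the genes LOC4350587, LOC4350589, LOC4350590, LOC4350591 and LOC9271860 were at -0.41, 0.20, -0.05, -0.10 and -0.15 on the log2 scale.

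SWEET14, a sugar transporter of the SWEET family, opened the stretch with the opposite sign. It was at 176, 195 and 302 in WT against 100.2, 129 and 233 in crl1, with replicate 3 the highest of both groups, so that the groups overlapped. crl1 was lower in each pair, but the difference did not pass the test (log2 fold change -0.59, 95% interval -0.88 to -0.30, adjusted p = 0.0963 in limma).

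**Figure D5:**
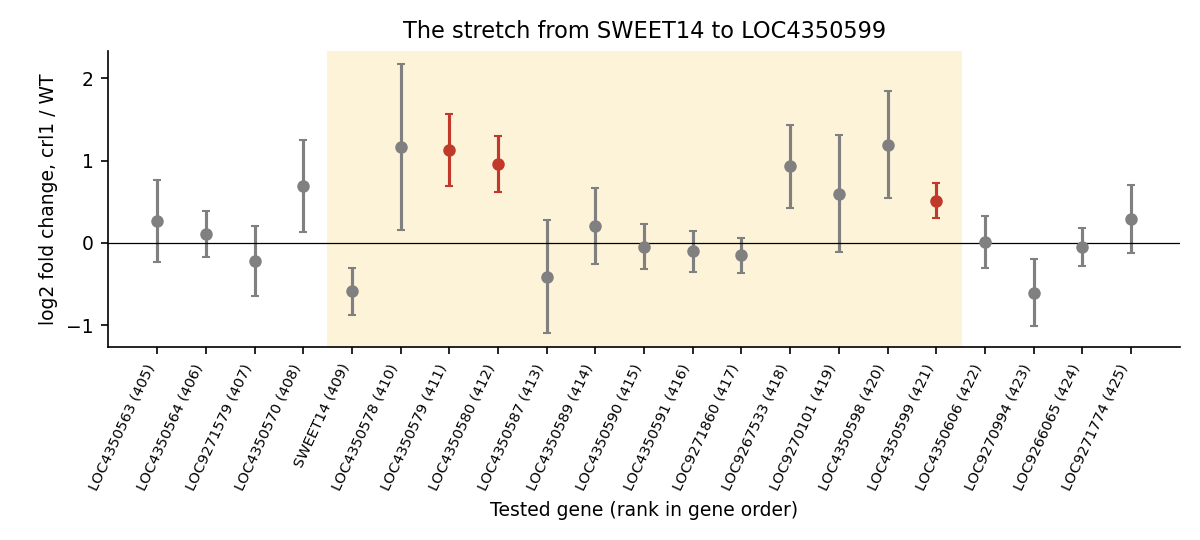
Log2 fold change of crl1 over WT with its 95% interval (vertical axis) for the tested genes at ranks 405 to 425 of chromosome 11, with the stretch from SWEET14 to LOC4350599 shaded and the called genes in red (n = 3 arrays per genotype). The called genes are at 1.13, 0.96 and 0.51, and SWEET14 is at -0.59.

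A run length of 13 was taken from this stretch, so that the counts by chromosome are a description fitted to it. In runs of 13 consecutive tested genes the highest count of called genes was 3 on chromosome 11, in this stretch, and 1 or 2 on each other chromosome. Of these 3 calls, that of LOC4350599 ended in 8 of 13 alternative settings, that of LOC4350579 in 5 and that of LOC4350580 in 4. The highest count of genes higher at an unadjusted p under 0.05 was 6, which chromosome 10 reached too, and 3 or 4 on the others. Of the 28 places next to a called gene on chromosome 11, the stretch included, 18 had the same sign and 2 were called. These 2 were LOC4350579 and LOC4350580 beside each other, both in the stretch, and outside it no neighbour of a called gene was called. Over all 12 chromosomes 0.658% of the genes were called, and 50.9% of the members had a positive log2 fold change. LOC4350809, directly before LOC9267585, was at 58.2, 31.7 and 53.3 in WT against 33.4, 17.1 and 25.02 in crl1, lower in each pair (log2 fold change -0.93, adjusted p = 0.181 in limma).

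Cut into stretches of 25 tested genes, the chromosome had medians from -0.09 at ranks 51 to 75 to 0.16 at ranks 326 to 350. Such medians ran from -0.135 on chromosome 3 to 0.155 on chromosome 4 among the other chromosomes. The stretch at ranks 401 to 425, with the 3 called genes, had a median of 0.12, made of 0.08, 0.26 and -0.06 in pairs 1 to 3. The log2 fold changes of adjacent genes had a Pearson correlation of 0.101 and a Spearman correlation of 0.000546 along the chromosome, genes being no independent replicates, and the Pearson value was -0.000633 to 0.107 on the others.

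By the ratio rule of the study, more than 2-fold up or down within every one of the 3 pairs and a p at most 0.01, chromosome 11 gave 0 higher genes (background 0.0199%) and 1 lower gene (background 0.166%), LOC4350344. A limma p stood in for the MAS5 change p here. The arrays of the genotypes did not overlap in 24 higher members (3.57%, background 3.05%) and in 22 lower members (3.27%, background 3.92%). All 3 pairs ran the same way in 108 higher members (16.1%, background 14.4%) and in 115 lower members (17.1%, background 16.6%), all of them near the background.

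Some members without a call were as far apart as the called genes. LOC4350553 was at 1028, 1405 and 1144 in WT against 1928, 1695 and 1650.4 in crl1. The genotypes did not overlap, and the gene missed the threshold (log2 fold change 0.57, SE 0.12, adjusted p = 0.0816 in limma). A further 5 members were past 1 on the log2 scale without passing, among them LOC4350534, at 50.3, 67.5 and 60.8 in WT against 35.1, 21.5 and 31.1 in crl1 (-1.05, adjusted p = 0.163 in limma). LOC4350559 stood at -1.14 and LOC4350979 at -1.03 (adjusted p = 0.230 and 0.373 in limma), both with an array under the minimum in each genotype.

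Of the 72 members with a name, 0 were higher and 2 were lower by limma, RAB16D and rca, and 14 had an unadjusted p under 0.05. These were 2.78% and 19.4% of the named members, beside 2.08% and 12.1% of all 672 members. Over the genes of all chromosomes the shares were 0.658% and 9.56%. Their median log2 fold change was 0.00584. By their symbols, the gene lists of disease resistance, receptor kinases, ribosome and proteasome, and heat shock held no named member, so that the resistance clusters the chromosome is known for could be described only through locus numbers. Among 13 genes of metabolism 1 was called, rca, and 3 had an unadjusted p under 0.05 (median -0.10). In none of the other lists was a gene called, apart from RAB16D. The 11 transcription factors had a median of 0.03 and the 5 transporters one of 0.06, with 1 and 2 genes at an unadjusted p under 0.05, a level that 9.56% of all genes reached. The 7 genes of DNA replication and cell division and the 5 of cell walls had medians of -0.02 and -0.01 and no gene at that level.

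Named members that did not pass were described by their values. GRXC10, a glutaredoxin, was at 296, 295 and 335 in WT against 259, 194 and 216 in crl1, lower without overlap (log2 fold change -0.48, SE 0.12, adjusted p = 0.178 in limma). Adh2, an alcohol dehydrogenase of fermentation, was at 351, 325 and 351 in WT against 422, 408 and 418 in crl1. These were also apart, with little spread inside each genotype (0.28, SE 0.10, adjusted p = 0.351 in limma). RR9, a type-A response regulator of cytokinin signalling, was at 144, 178 and 149.7 in WT against 146, 116 and 80.0 in crl1, where pair 1 showed no fall (-0.50, SE 0.18, adjusted p = 0.390 in limma). PSK2, a precursor of the growth peptide phytosulfokine, was lower in each pair, from 274, 266 and 160.3 to 197, 219 and 122 (-0.38, SE 0.11, adjusted p = 0.268 in limma).

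Of the genes on the positive side, the calcium pump gene ACA8 was at 319, 305 and 365 in WT against 440.5, 344 and 491 in crl1 (log2 fold change 0.35, SE 0.10, adjusted p = 0.257 in limma). U2AF65A, a splicing factor subunit, was at 575, 491 and 446 in WT against 668, 691 and 526 in crl1 (0.31, SE 0.10, adjusted p = 0.297 in limma). LA1, or LAZY1, which acts in shoot gravitropism, was at 461, 406 and 316 in WT against 598, 468 and 376 in crl1 (0.28, SE 0.10, adjusted p = 0.361 in limma). All 3 were higher in each pair with overlapping groups. The defence genes were few: Chib3H-h, named as a chitinase, was at -0.67 and its neighbour chitinase at 0.44 on the log2 scale (adjusted p = 0.398 and 0.679 in limma).

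The named members with the highest signals differed little between genotypes, and replicate 3 was lowest in each of those given here. TCTP, translationally controlled tumour protein, was at 7489, 7191 and 3844 in WT against 7912, 8036 and 4147 in crl1 (log2 fold change 0.12, SE 0.08, adjusted p = 0.724 in limma). TubA, an alpha-tubulin, was at 5920.3, 5700.0 and 2808 in WT against 5629, 6993 and 2969 in crl1 (0.10, adjusted p = 0.805 in limma), and the metallothionein MT1a at 3392, 3566 and 2262 in WT against 4291, 3954 and 2345 in crl1 (0.18, adjusted p = 0.579 in limma). Over the members as a whole, replicate 3 was the lowest in both genotypes in 32.4% and the highest in both in 23.2%, against 29.5% and 26.2% on the other chromosomes. Among the 14 called genes it was the highest in both in 6.

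Of the members, 94 had more than 1 tested probe set. Of their 115 further probe sets, 76 had the sign of the brightest, with a Pearson correlation of 0.406 and a Spearman correlation of 0.356 between the log2 fold changes, over points that share arrays and often target sequence. Under the signal minimum, 3 of 281 probe sets of chromosome 11 genes were past 2-fold higher in all pairs and 3 were past 2-fold lower (1.07% each, beside 1.38 and 1.66% on the other chromosomes). No array of these 6 probe sets reached a signal of 20, the highest being 17.4, and they were not tested.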

How the data were processed

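The authors hybridised stem base RNA to 6 Affymetrix rice arrays, 3 of each genotype. They deposited 1 intensity for each probe set, a linear MAS5 signal from Affymetrix Expression Console, each array being scaled to a common target (trimmed mean 100 on each). The sources used here give no program versions. Control probe sets (123) were left out.

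Log2 signals of the 25045 probe sets with a geometric mean of at least 20 were fitted in limma 3.58.1 under R 4.3.3, the replicate number being a block, and a mean-variance trend. The Benjamini-Hochberg adjustment ran over all of them, with a threshold of 0.05, and genes of chromosome 11 were then read from the brightest probe set. The number of arrays limits the precision. The pairing comes from the study's methods, which took ratios within replicates. Over chromosome 11 same-numbered arrays deviated together (correlations 0.52, 0.567 and 0.822), and those of different numbers at most at 0.306. Of 57258 probe sets, 22436 were paired with 1 gene, 95 with several and 34727 with none. Gene names and order came from the RefSeq annotation of assembly ASM3414082v1, where all 17905 gene IDs matched. The deposited table names no build, so no coordinates are given.

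The chromosome, its members and the lists were chosen with earlier results of these data known. Genes were named by a rule: the called genes, those past the ratio, their neighbours, the named genes with the 10 smallest p and the 5 highest signals, and 2 per gene list. LOC4350553, LOC4350534, LOC4350559, LOC4350979, RAB16B, RAB21 and the genes of the stretch were added after their values were seen. Os11g11790, a gene of the study's qPCR, matched no ID and is not reported. Alternatives left out the block, the minimum, the trend, each pair or probe sets that may cross-hybridise, or changed the minimum, pseudocount, scaling, summary per gene or threshold. The script was tested on simulated data. Python 3.11.15 (numpy 2.4.6, pandas 2.3.3, matplotlib 3.10.9) drew the plots.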

Additional observations from a re-analysis of the deposited data

How the results depend on the processing

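The calls of chromosome 11 rested on the pairing of the arrays. Without the replicate block limma called 0 higher and 0 lower members, 0% beside 0.0266% over all chromosomes, with 15 higher and 16 lower at an unadjusted p under 0.05. Without the variance trend it called 0 and 0 as well, 0%, with 35 and 37 at that level, and no gene on any chromosome passed. At an adjusted p under 0.01 there were 0 higher and 1 lower, 0.149% beside 0.126% over all chromosomes. Without the signal minimum 3 higher genes were called and the share was 1.3% of 846 genes, beside 0.425%. Leaving out 1 replicate pair gave 0 to 5 higher genes, 3 to 11 lower genes and a share of 0.446 to 2.38%, the lowest without replicate 3 and the highest without replicate 1, where 1.18% of the genes of all chromosomes were called. Of the 14 genes, 11 were kept without replicate 1, 8 without replicate 2 and 3 without replicate 3, namely LOC4349647, LOC4350344 and LOC4350725. With 2 pairs the ratio found 1 to 2 higher and 1 to 4 lower members. The same 14 genes were called with median centring, with quantile normalization, with a pseudocount of 16, with a minimum of 50 and without _s_at and _x_at probe sets. With the probe sets of a gene averaged 12 of them were called, and 12 with the minimum in at least 1 genotype, a setting chosen after seeing the data; LOC4350599 and rca were lost in both. None of the 14 reversed in any setting. With stretches of 50 genes the highest median was 0.037. The cause of these differences was not tested.

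Reversals were found only in genes that had not passed. BURP17 went to -0.0174 with quantile normalization, LOC4350271 to -0.000115 with the pseudocount, LOC4350039 to 0.15 without _s_at and _x_at probe sets, and OsPRDA1 to 0.251 as the mean of its probe sets. Leaving out a pair reversed BURP17 (-0.0265 to 0.115), SC34 (-0.0761 to 0.0522), LOC4349644 (-0.229 to 0.107), LOC4350045 (-0.0691 to 0.0971), LOC9271452 (-0.108 to 0.0999), LOC4350271 (-0.0269 to 0.0202), LOC4350347 (-0.00782 to 0.0574), OsPRDA1 (-0.202 to 0.125), LOC4350606 (-0.0697 to 0.113), LOC4350724 (-0.916 to 0.0190), LOC4350726 (-0.0102 to 0.174), LOC4351221 (-0.0748 to 0.192) and LOC9270248 (-0.0306 to 0.237).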
